A study of Mus musculus with 8 samples.

Results

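The cytosolic ribosomal protein genes were compared between common myeloid progenitors (CMPs) of young and old mice. Members were the array's gene names made of Rpl, Rps or Rplp, a number and at most 1 further letter of a, l, x or y (with any digits after it), which gave 83 of 34797 gene names and 185 of 55681 probes. Each gene was read from its brightest probe, the one with the highest mean over all arrays. Of the 83 names, 76 are structural proteins of the ribosome (46 of the large and 30 of the small subunit, with Rps3a under its older name). The other 7 are Rpl3l, Rpl7l1, Rpl10l, Rpl22l1, Rpl39l, Rps27l and Rps4y2, which are paralogues or copies. Rpsa and Fau also encode structural proteins but are named otherwise, and are given separately.

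The cells were FACS-sorted CMPs of untreated, wildtype C57BL/6J mice kept free of pathogens. There were 4 arrays of young mice (young 3 to young 6) and 4 of old mice (old 2 to old 5). Per the sample labels the young mice were 2 to 3 and the old mice 22 to 24 months old, while the series' design text gives 3 to 4 and 22 to 26 months. No group carried a transgene or a treatment. The methods give fewer mice per age than there are arrays and do not name the arrays, so the p-values measure the spread between these arrays.

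Ribosomal proteins wrap the ribosomal RNAs of both subunits of the ribosome, the particle that translates mRNA into protein. Most are made in equal numbers, 1 copy per ribosome. Their mRNAs are abundant in growing cells and start with a run of pyrimidines, the TOP motif (terminal oligopyrimidine), through which mTORC1 and the RNA-binding protein Larp1 control their translation. Blood formation is sensitive to their dose, since loss of 1 copy of several of them causes Diamond-Blackfan anaemia, a failure of red cell production.

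The start of the transcript is shown for 10 of the members that the results name, since the TOP motif is what these genes are known to share. RefSeq promoter windows of GRCm38.p6 (250 bases before to 50 bases after an annotated start) were found for 62 of the 83 members, 74 windows in all. Each stretch below holds 20 bases before and 10 bases from the start on, 5′ to 3′, and capitals mark a C at the start with at least 4 pyrimidines behind it.
Rps6, chr4:86857358-86857387, minus strand: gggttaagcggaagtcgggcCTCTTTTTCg
Rplp2, chr7:141447631-141447660, plus strand: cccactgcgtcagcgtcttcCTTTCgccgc
Rps27, chr3:90213639-90213668, minus strand: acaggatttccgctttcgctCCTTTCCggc
Rpl38, chr11:114668560-114668589, plus strand: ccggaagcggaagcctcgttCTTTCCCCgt
Rpl35a, chr16:33056462-33056491, plus strand: gcgcggcggggcttgccttcCTCTTTCCgc
Rplp0, chr5:115559447-115559476, plus strand: acgtcgtcttcgggtttcgaggaccgcctg
Rpl11, chr4:136053384-136053413, minus strand: gcctcctgacccataaggccacggggccgg
Rps19, chr7:24884572-24884601, plus strand: agcactccgaaatctcgcgagactcgacgc
Rpl5, chr5:107900508-107900537, plus strand: ctctttctcacgtcgcttgcgtgctggtgg
Rpl39, chrX:37085213-37085242, minus strand: ccccccctaagctccgcctctagcgacttc
The first 5 genes have the run exactly at the start of a window, and the other 5 do not. For Rpl5 the window's start is not that of the RefSeq gene. The gene begins at chr5:107900508, the first base printed, and there a C has at least 4 pyrimidines behind it. All counts use the starts of the windows, so Rpl5 is not among the genes with the run. The display was chosen to show the motif, which is more frequent in it than among the members, where 13 of 62 genes have it at the start of a window. Rpl35a has 3 annotated starts and the run at 1 of them, the one shown, and Rps19 has 3 with the run at none.

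A C with at least 4 pyrimidines behind it stood at the window's start in 13 of the 74 member windows (17.6%) and in 2.51% of all 32851 windows. Within 10 bases of the start on either side, it was found in 55.4% of the member windows and 30.7% of all windows. On both strands of the whole window, the letters CCGGAAG, the core that ETS factors bind, were found in 35.1% of the member windows and 8.86% of all windows. The letters AAGATGGC, which hold the core bound by YY1, were in 10.8% against 2.75%, and TATAAA was in 9.46% against 13.6%. None of the 3 letter strings contains another. Read on the opposite strand, though, CCGGAAG begins with a C and 4 pyrimidines, so its count and that of the pyrimidine run can overlap. They describe the windows and say nothing about which factor was bound in these cells.

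No ribosomal protein gene passed the test for age. Of the 83 members, 82 were tested, since the scanner software marked their brightest probe as well above background in 4 or more arrays, and for 80 of them in all 8. With limma and Benjamini-Hochberg adjustment over all 33476 tested probes, at an adjusted p under 0.05 and a difference of at least 1.5-fold, 0 of 82 were called higher and 0 of 82 lower in old CMPs. Over all 23145 genes tested the same rule called 44 higher (0.19%) and 4 lower (0.0173%), so a list of this length would hold few calls in any case. At an unadjusted p under 0.05, 0 members were higher, against 3.95% of all genes, and 1 was lower, against 2.67% of all genes. The old arrays all lay above the young arrays for 0 members (3.19% of all genes) and all below for 1 member (1.66% of all genes). The 1 member in both counts was Rps4y2, which is described below and is not a ribosomal protein gene in RefSeq.

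**Figure D1:**
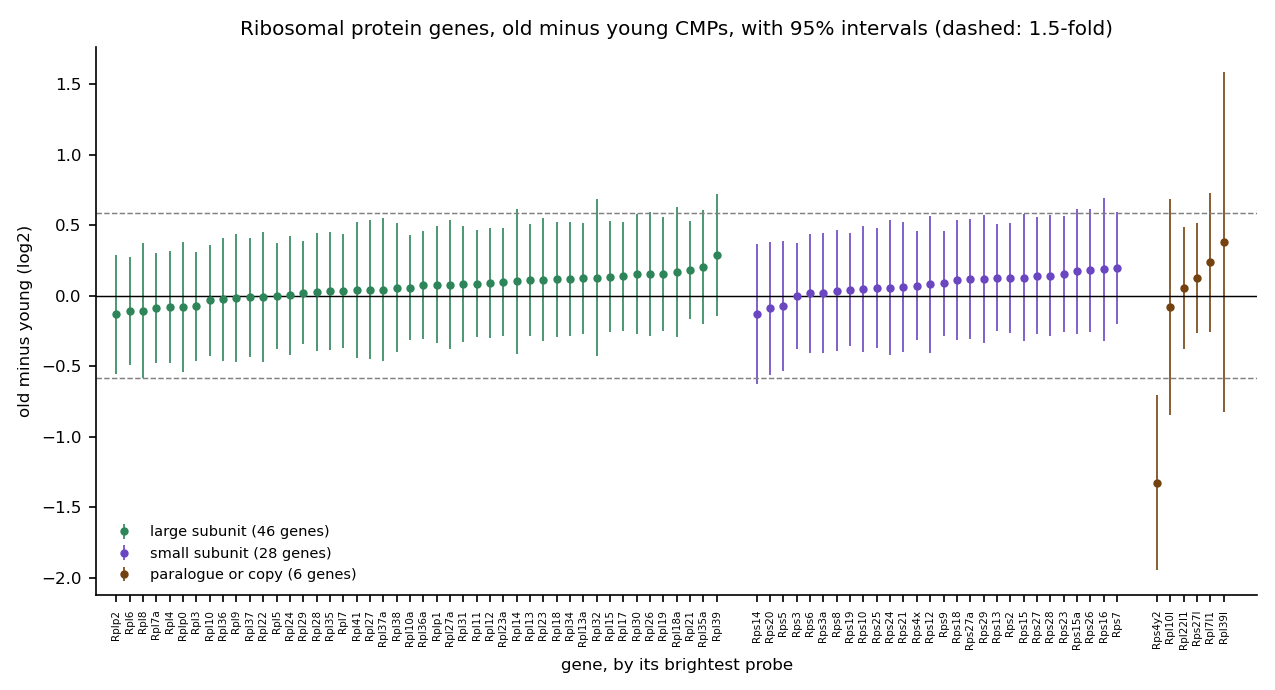
Difference between old and young CMPs (log2, vertical axis) of 80 of the 82 tested members by their brightest probe, grouped as large subunit, small subunit and paralogue or copy and sorted within each; bars are 95% intervals from limma and dashed lines mark 1.5-fold. The structural genes lie between -0.13 and 0.29, and Rps4y2 at -1.33 is the 1 gene whose interval lies away from 0.

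The differences of the structural genes were small. Over the 76 of them the difference between old and young CMPs ranged from -0.13 to 0.29 on the log2 scale, with a median of 0.08, beside a median of -0.01 over all genes tested. Standard errors were 0.16 to 0.25. The 95% interval lay within 1.5-fold in either direction for 64 of the 76, and within 2-fold for all 76. The lowest unadjusted p among them was 0.170, that of Rpl39, and their lowest adjusted p was 0.998.

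More structural genes lay above 0 than below it, but that split turned without old 4, alone or with young 4. In all, 62 members had a higher and 20 a lower mean in old CMPs (58 and 18 of the structural genes), beside 11022 and 12123 of all genes tested. Without old 4 the members' split was 34 higher and 48 lower, with a median of -0.02. Without young 4 it was 46 and 36, with a median of 0.02. Leaving out young 4 and old 4 together, a choice made after the data were seen, gave 18 higher and 64 lower, with a median of -0.09. With the 4 arrays of slide 1 alone (young 3, young 4, old 2 and old 4) 76 members were higher and 6 lower. With the 4 arrays of slide 2 alone 27 were higher and 55 lower. The median was 0.20 on slide 1 and -0.05 on slide 2, beside 0.06 and -0.07 over all genes tested. The split also moved with the scaling, to 53 higher and 29 lower after quantile normalization, 51 and 31 after normexp background correction, and 79 and 3 after a shift to the array median. This last shift moved the median of all genes from -0.01 to 0.10, and the members' median lay 0.09 above that of all genes under both shifts. The sign of the members' median thus depended on which arrays entered. The members' median was above that of all genes in 24 of the 25 alternatives, which share arrays. Without old 4 the gap was only 8e-04, and without young 4 and old 4 together it was -0.05. The difference from all genes was not tested.

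**Figure D2:**
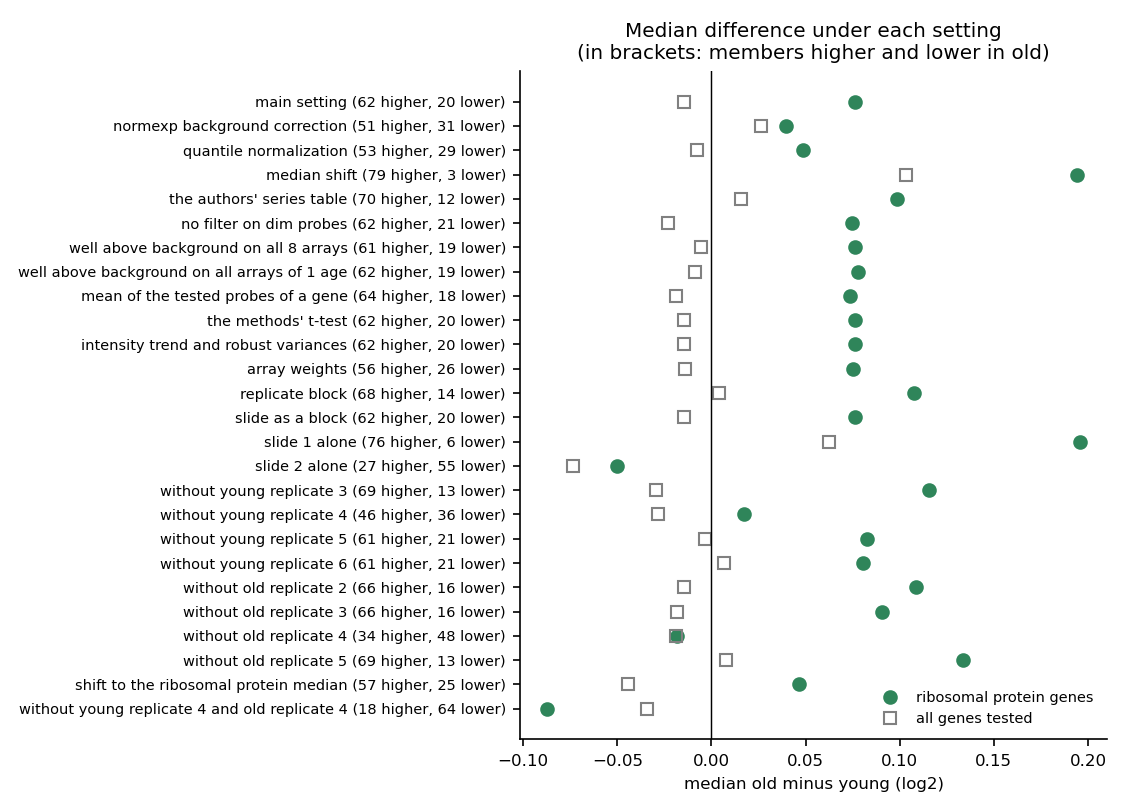
Median difference between old and young CMPs (log2, horizontal axis) of the ribosomal protein genes (filled circles) and of all genes tested (open squares) under each way of processing and with arrays left out (vertical axis, with the members higher and lower in brackets). The members' median runs from 0.20 with slide 1 alone to -0.09 without young 4 and old 4.

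The members moved together from array to array. As the deviation of each gene from its own mean over the 8 arrays, the members' median was 0.30 on old 4, where 80 of 82 lay above their mean. It was -0.23 on young 4, where 77 of 82 lay below it. On old 5 it was -0.14 with 75 of 82 below, and on young 3 it was 0.12 with 68 of 82 above. The other 4 arrays had medians between -0.05 and 0.00. Of the 76 structural genes, 60 had their highest value on old 4 and 50 their lowest on young 4. The arrays at both ends thus come 1 from each age and share slide 1.

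The dimmest array was the highest for the members and the brightest array the lowest. The 75th percentile of the signal, to which each array was scaled, was 289.7 on old 4 and 565 on young 4, with the other 6 arrays between them. After quantile normalization the members' median deviations shrank to between -0.06 and 0.03. That step gives all arrays the same distribution of values and so draws the brightest genes, such as these, together. With each array shifted to its median, old 2 was the highest at 0.21, above old 4 at 0.12, and the lowest were young 4 at -0.15 and young 5 at -0.13. Which array stood at the top thus depended on the scaling. The part that the array's brightness has in the common movement was not tested beyond this. The brightest probes of the members together took 7.135% of the summed probe signal on young 4 and 8.426% on old 4.

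**Figure D3:**
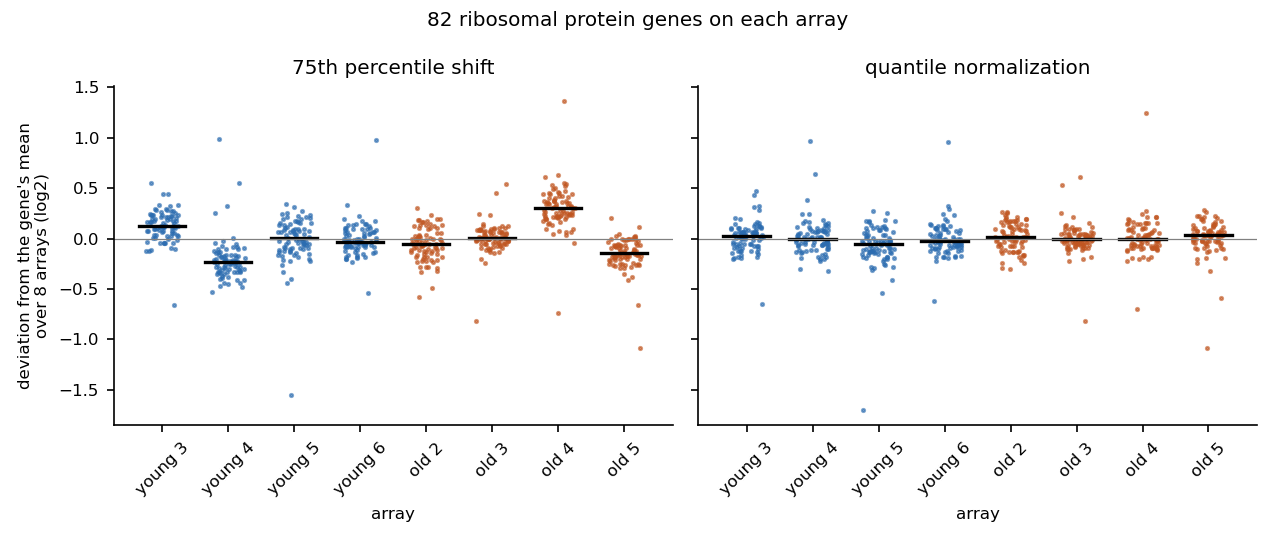
Deviation of each of the 82 tested members from its own mean over the 8 arrays (log2, vertical axis) on each array (horizontal axis; young blue, old orange), with black bars at the medians, as scaled to the 75th percentile (left) and after quantile normalization (right). The medians run from -0.23 on young 4 to 0.30 on old 4 at left, and from -0.06 to 0.03 at right.

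Beside this common movement the structural genes had a smaller within-age SD than genes in general, at a far higher signal. Their within-age SD had a median of 0.211, and 0.335 was the median over all genes tested. Once the array's median over the structural genes was subtracted, the SD of 72 of the 76 fell and its median was 0.123. After quantile normalization the medians were 0.1155 for the structural genes and 0.329 for all genes. Both steps favour a smaller SD here. Subtracting these genes' own median removes what they share, and quantile normalization draws the brightest values of all arrays together. The median level of the structural genes was 8.55 to 9.09 over the arrays, against -0.33 to -0.25 for all genes tested. The part of brightness in their SD was not tested. On the values with the structural median subtracted, 45 of the 76 had a higher and 31 a lower mean in old CMPs.

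Relative to the other structural genes, 2 genes had ages that did not overlap. Rpl35a, a large subunit protein whose loss is a cause of Diamond-Blackfan anaemia, lay at -0.44, -0.57, -0.65 and -0.60 relative to the structural median on the young arrays and at -0.38, -0.41, -0.43 and -0.42 on the old arrays. All its old values were thus above all its young ones, by a mean of 0.15. Rplp2, an acidic protein of the stalk that recruits translation factors, lay at 0.77, 0.69, 0.56 and 0.75 on the young and 0.48, 0.53, 0.56 and 0.46 on the old arrays. Its old values were all below its young ones, by a mean of 0.18, with a gap between the ages smaller than 0.01. On this scale, chosen after the data were seen, 1.7% of all genes tested had all old arrays above and 2.08% all old arrays below, so 1 of 76 in each direction is no more than the share over all genes.

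The stalk proteins showed no common direction. Rplp0, the base of the stalk, had 9.65, 9.03, 9.65 and 9.50 on the young and 9.23, 9.47, 9.65 and 9.17 on the old arrays, as log2 signal over the array's 75th percentile. The ages overlapped fully and differed by -0.08 (SE 0.21). Rplp1, which pairs with Rplp2, differed by 0.08 (SE 0.19), with young values of 8.61 to 9.16 and old values of 8.83 to 9.23. Rplp2 on the same scale differed by -0.13, with an SE of 0.19, young values of 9.24 to 9.68 and old values of 9.13 to 9.65. Of the 4 stalk genes, Rpl12 included, 2 were higher and 2 lower, and none passed the test.

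Rpl5 and Rpl11 form a complex with the 5S ribosomal RNA, and when ribosome assembly fails this complex binds Mdm2 and raises p53. Rpl5 had 7.48, 7.39, 7.38 and 7.55 on the young and 7.33, 7.25, 7.66 and 7.56 on the old arrays. Its mean differed by 0.00 (SE 0.17, 95% interval -0.38 to 0.38). Rpl11 had 9.20, 8.93, 9.23 and 9.11 on the young and 9.10, 9.24, 9.42 and 9.04 on the old arrays, a difference of 0.09 (SE 0.17, 95% interval -0.30 to 0.47). Neither gene's values separated the ages.

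The listed Diamond-Blackfan anaemia genes were nearly all above 0, and this split followed the arrays that entered more than the scaling. The list holds 18 members in which loss of 1 copy causes the disease, and it may not be complete. Of these 18, 17 had a higher mean in old CMPs, with a median of 0.12. None passed the test (limma's lowest unadjusted p 0.288). The 58 structural genes outside the list had a median of 0.06, with 41 higher and 17 lower. Both splits hold for this list alone. With each array shifted to the median of its ribosomal protein genes, a scale chosen after the data were seen, 17 were higher and 1 lower, with a median of 0.09. They were split into 15 and 3 after quantile normalization, 13 and 5 after normexp background correction, and 18 and 0 after the shift to the array median. In the authors' series table the split was also 18 and 0. There the lines of 60 of the 83 members hold over 1 probe, so more than the scaling differs. Without young 4 alone the split was 13 higher and 5 lower. Without old 4 it was 10 higher and 8 lower, and without young 4 and old 4 into 4 higher and 14 lower. On slide 2 alone 6 were higher and 12 lower. Rps19, the gene most often affected in the disease, had 8.10, 7.81, 8.29 and 8.11 on the young and 8.11, 8.23, 8.24 and 7.89 on the old arrays. Its difference was 0.04 (SE 0.18), with overlapping ages. Rps26 differed by 0.18 (SE 0.19). Rps7 and Rpl35a, 2 further genes of the disease, differed by 0.20 each (SE 0.18 each).

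Rps6, the small subunit protein that the S6 kinases phosphorylate downstream of mTORC1, had 8.82, 8.66, 8.92 and 9.002 on the young arrays. On the old arrays it had 8.57, 8.81, 9.20 and 8.88, a difference of 0.02 (SE 0.19). Both the lowest and the highest of its 8 values were on old arrays. Rpl38, which is needed for the translation of Hox mRNAs in the mouse embryo, differed by 0.06 (SE 0.21), with young values of 8.73 to 9.06 and old values of 8.60 to 9.35. Rps27a, made as a fusion with ubiquitin, differed by 0.12 (SE 0.19).

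**Figure D4:**
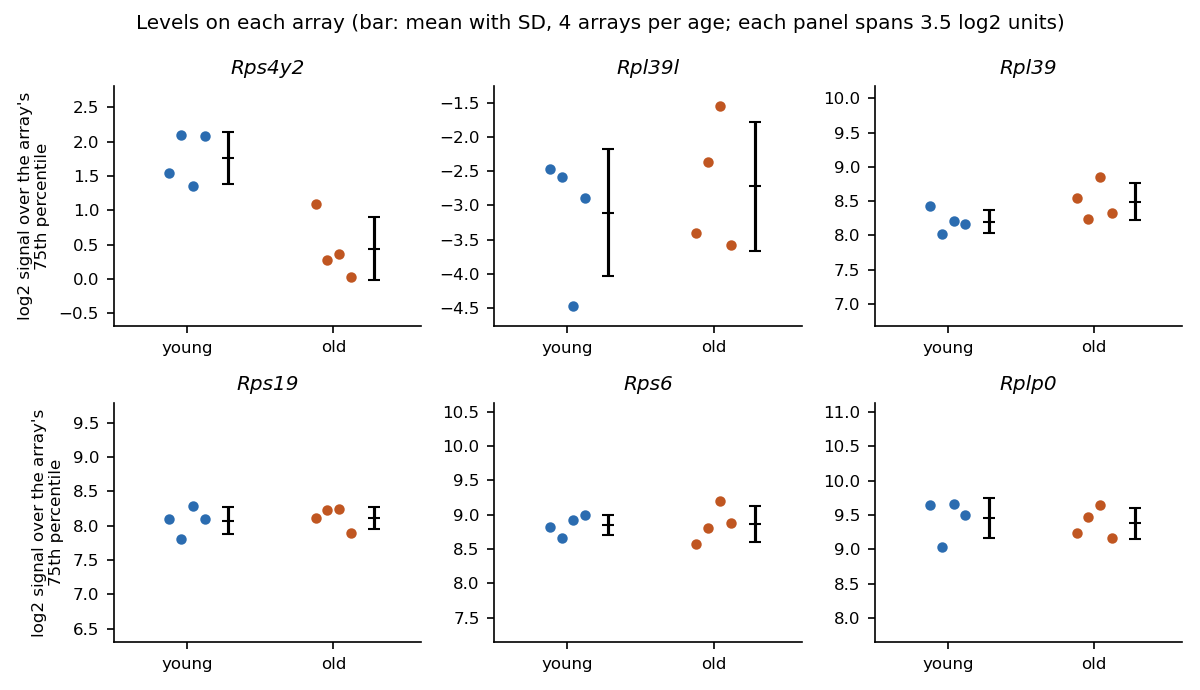
Level on each array (log2 signal over the array's 75th percentile, vertical axes, each spanning 3.5 units) of 6 genes in young (blue) and old (orange) CMPs, arrays in replicate order from left to right, with the mean and SD of 4 arrays per age. Old and young values are separate for Rps4y2 alone and overlap for Rpl39l, Rpl39, Rps19, Rps6 and Rplp0.

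By place in the ribosome, the counts were as small. Of 9 large subunit proteins that line the peptide tunnel or surround its exit, 7 were higher and 2 lower, with a median of 0.09. Rpl3, Rpl8 and Rpl10, which reach toward the catalytic centre, had differences of -0.08, -0.11 and -0.03, with SEs of 0.17 to 0.21. Rpl8 had 9.41, 8.96, 9.64 and 9.38 on the young and 8.96, 9.29, 9.60 and 9.12 on the old arrays, so its ages overlapped. These values hold for the brightest probes, and further bright probes lay on the other side of 0 for Rpl3 (0.08, SE 0.17) and Rpl8 (0.11, SE 0.17), while both further probes of Rpl10 lay at -0.06 and -0.02. By the brightest probes, all 3 genes lay above 0 on slide 1 (0.04 to 0.15) and below 0 on slide 2 (-0.19 to -0.30). The 46 genes of the large subunit had a median of 0.07 (33 higher, 13 lower), and the 30 of the small subunit had a median of 0.09 (25 higher, 5 lower).

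By the brightest probe, the structural gene with the highest difference was Rpl39, a short protein of the tunnel wall. It had 8.42, 8.01, 8.21 and 8.16 on the young and 8.54, 8.24, 8.85 and 8.33 on the old arrays. The difference was 0.29 (SE 0.19, 95% interval -0.15 to 0.72), with 0.47 on slide 1 and 0.10 on slide 2. Its further probes gave less, 0.08 (SE 0.17) and 0.05 (SE 0.21). Among the structural genes with the lowest differences after Rplp2 were Rps14 at -0.13 (SE 0.22), Rpl6 at -0.11 (SE 0.17) and Rpl8 at -0.11. For Rpl6 3 further probes lay at 0.07, 0.01 and -0.05, so that the sign, as for Rpl8, depended on the probe, while Rps14 had 1 probe. Rps14, whose loss causes the anaemia of a myelodysplastic syndrome, had 9.75, 9.32, 9.71 and 9.69 on the young and 9.26, 9.59, 9.97 and 9.14 on the old arrays. None of these genes had ages that were apart.

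Rps4y2 was the 1 member whose old arrays all lay below its young arrays. It had 1.54, 2.09, 1.35 and 2.08 on the young and 1.10, 0.28, 0.36 and 0.02 on the old arrays, means of 1.77 ± 0.38 and 0.44 ± 0.46 (SD, n = 4 each). The old values were 2.51-fold lower (log2 -1.33, SE 0.28, 95% interval -1.95 to -0.71). limma's unadjusted p was 0.000798 and its adjusted p over all probes 0.132, so the gene was not called. The difference was -1.09 on slide 1 and -1.57 on slide 2. With normexp background correction the adjusted p was 0.0196, and with array weights it was 0.0432, so in both of these it was called lower. Over all alternatives tried the adjusted p ran from 0.0196 to 0.995, and the log2 difference from -1.57 to -1.09.

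RefSeq does not hold Rps4y2 as a ribosomal protein gene. By the accession of its probe it is Rps4l, a transcribed pseudogene on chromosome 6, while Rps4x, the small subunit protein gene that it resembles in name, is on chromosome X. The probe is the 1 of the brightest probes whose ages were apart, and its 60 bases (mm9, chr6:148304043-148304102, plus strand, printed whole with no base marked) are as follows.
Rps4y2 probe: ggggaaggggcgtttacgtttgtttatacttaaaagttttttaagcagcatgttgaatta
Against the probes of Rps4x, its best ungapped alignment on either strand had 22 matching bases over 52. The Rps4x transcript was not compared, so its detection by this probe was not tested. Of the members that matched a RefSeq gene, 82 are protein coding and this 1 is not.

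The paralogues otherwise did not separate the ages. Rpl39l, a testis paralogue of Rpl39, was dim, at -2.47, -2.59, -4.46 and -2.89 on the young and -3.40, -2.37, -1.55 and -3.57 on the old arrays. Its probe was well above background on 3 of 4 young and 4 of 4 old arrays, and its difference of 0.38 had an SE of 0.54. Rpl10l, the testis paralogue of Rpl10, was above background on 2 of 4 young and 3 of 4 old arrays and differed by -0.08 (SE 0.34). Rpl10 itself differed by -0.03 (SE 0.18). Rpl3l, the muscle and heart paralogue of Rpl3, was well above background on 0 of 8 arrays and was not tested. Rpl22l1, the paralogue of Rpl22, differed by 0.06 (SE 0.19), with young values of 6.02 to 6.73 and old values of 6.40 to 6.65, and Rpl22 by -0.01 (SE 0.21). Rps27l, a target of p53, had 6.61, 6.65, 6.52 and 6.87 on the young and 6.91, 6.73, 6.96 and 6.56 on the old arrays, a difference of 0.13 (SE 0.17). Its partner Rps27 differed by 0.14 (SE 0.19). Rpl7l1 differed by 0.24 (SE 0.22) and Rpl7 by 0.03 (SE 0.18). The brightest probe of none of these paralogues matched a probe of its partner in more than 28 of 58 bases. Only probes were compared, not transcripts, so this cannot tell whether a probe also detects its partner's mRNA.

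Rpsa and Fau, outside the name pattern, had differences within the range of the members. Rpsa, also known as the laminin receptor, differed by 0.05 (SE 0.22), and Fau, a fusion with a ubiquitin-like protein, by 0.04 (SE 0.20). Rpsa had 9.40, 8.85, 9.47 and 9.42 on the young and 8.99, 9.44, 9.73 and 9.19 on the old arrays. Its lowest value was thus on young 4 and its highest on old 4, the arrays at the ends for the members.

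Further probes of the members mostly gave differences close to that of the brightest one. Of the 185 probes 183 were tested and 180 were above background on all 8 arrays, while 2 were on no array. In 57 genes there were further tested probes, 101 in all, of which 83 differed by less than 0.2 from the brightest probe in their difference between the ages and none by more than 1. In 21 of the 57 genes at least 1 further probe lay on the other side of 0 from the brightest. Only further probes of Rps15a and Rps24 differed by over 0.4, and these were picked out after their values were seen. That of Rps24 lies at chr14:25312695-25315015 (mm9), a span longer than its 60 bases and so across a splice junction of a gene whose transcripts are known to be alternatively spliced at the 3′ end. It had 7.68, 6.74, 6.82 and 7.005 on the young and 7.66, 7.04, 8.45 and 7.86 on the old arrays, a difference of 0.69 (SE 0.32, limma's unadjusted p = 0.0563 and adjusted p = 0.812). The brightest probe of Rps24 differed from it by 0.64. The further probe of Rps15a was dim and differed by 0.62 (SE 0.32). Neither passed the test.

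Ribosomal protein genes have many near-identical copies in the genome, which limits what a probe can tell. The brightest probes of 28 of the 83 members shared a run of at least 30 bases with a probe of another gene name on the array. For Rps27 and Rps29 the array's coordinates (chromosomes 9 and 2) are not on the chromosome of the RefSeq gene (3 and 12), and the probe of Rps3 has none. The probe of Rps2 is on the gene's chromosome, 17, but far from it, at 42864841 (mm9) against a gene start of 24718121 (GRCm38.p6). Signals of such genes may hold transcripts of copies and are uncertain to that extent.

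Members with the pyrimidine run at the start of a window were set beside the rest as a description. The 13 genes with it had a median difference of 0.06 (12 higher, 1 lower), and the 48 tested genes whose windows lack it at the start had 0.08 (37 higher, 11 lower).

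None of the genes that make and use ribosomes passed the test. Of 38 ribosome assembly factors tested 0 passed and 0 had an unadjusted p under 0.05, with a median of 0.10 (27 higher, 11 lower). The 14 genes of RNA polymerase I, which transcribes the ribosomal RNA, and of its factors, such as Ubtf, had a median of 0.02. The 13 of mTORC1 and the regulators of TOP mRNAs had one of 0.04, with no gene under 0.05 in either list. The 15 translation factors and other genes with TOP mRNAs, such as Eef1a1, Eef2 and Npm1, had a median of -0.06 and also no such gene. The elongation factor Eef2 was lowest on young 4 at 6.84, against 7.71 to 8.20 on the other young arrays.

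Mitochondrial ribosomal proteins, which serve the separate ribosome of mitochondria, had a median of 0.10, with 61 of 76 higher, 15 lower, 0 called and 0 at an unadjusted p under 0.05. The split stayed on the same side when old 4 was left out (60 higher, 16 lower) or when both young 4 and old 4 were (64 higher, 12 lower), where that of the cytosolic genes turned. Young 4 and old 4 are the arrays at the ends for the cytosolic genes, so leaving them out cannot rank the families. Without young 3 the mitochondrial split was 50 and 26 (median 0.04), and without old 2 it was 54 and 22 (median 0.05). On slide 2 alone it was 36 and 40, and after quantile normalization 52 and 24. The mitochondrial genes' median deviation from the gene's own mean was highest on old 2 (0.20) and lowest on young 3 (-0.25). Those of the cytosolic genes on these arrays were -0.05 and 0.12. The difference between both families was not tested.

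**Figure D5:**
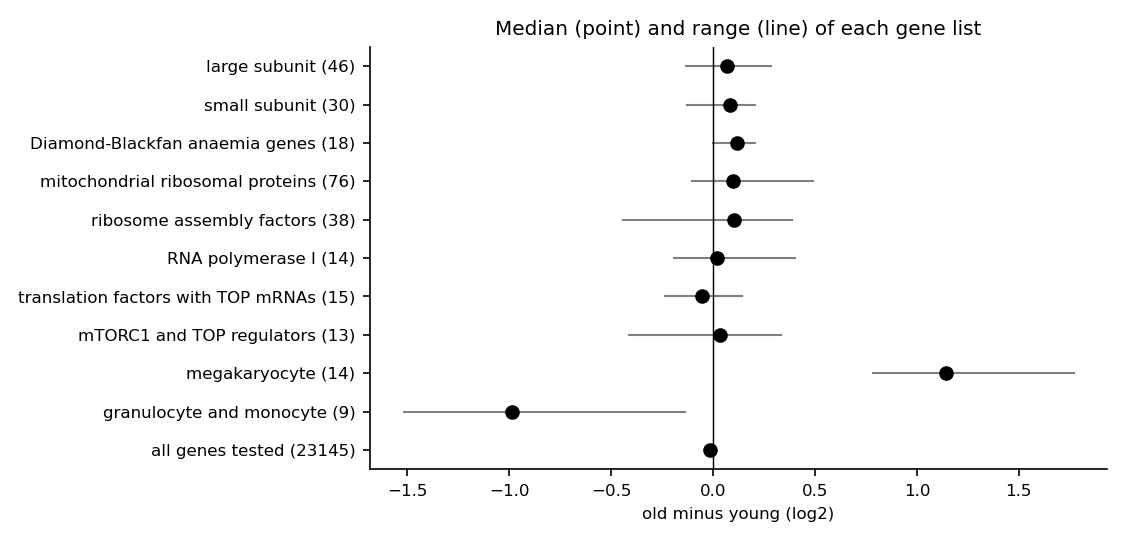
Median (point) and range (line) of the difference between old and young CMPs (log2, horizontal axis) over the tested genes of each list (vertical axis, number of genes in brackets), with the median alone for all genes tested. The ribosomal, assembly and translation lists lie near 0, between -0.06 and 0.12, while the megakaryocyte markers lie at 1.14 and the granulocyte and monocyte markers at -0.99.

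Megakaryocyte markers and granulocyte and monocyte markers had larger median differences between the ages than the ribosomal protein genes, though few of them passed the same test. Of 14 megakaryocyte markers tested 14 were higher in old CMPs, all at an unadjusted p under 0.05 and 1 (Gp9) called, with a median difference of 1.14 (1 of them had no value on 1 array, where all its spots were outliers). The median level of that list ran from 0.78 to 1.47 on the young and from 1.89 to 2.61 on the old arrays. Of 9 granulocyte and monocyte markers 9 were lower, 7 of them at an unadjusted p under 0.05 and 0 called, with a median difference of -0.99. Their median level ran from 5.17 to 5.90 on the young and from 3.69 to 5.35 on the old arrays. All 7 markers of CMPs and progenitors were above background on all 8 arrays. At an unadjusted p under 0.05, 1 of these 7 was higher in old CMPs (Gata2, 0.72, SE 0.30) and 1 lower (Mpo, -0.59, SE 0.17), with 0 called. Among 6 tested markers of haematopoietic stem cells (HSCs), 1 was called higher (Hoxb5, 1.85, SE 0.20, limma's adjusted p 0.00708) and 1 was lower at an unadjusted p under 0.05 (Ly6a, -0.73, SE 0.23). Of 5 tested endothelial markers 2 were higher at an unadjusted p under 0.05 (Emcn and Vwf, which is also in the megakaryocyte list) and 0 were called. Of the lineages that the sort excludes, 8 of 9 erythroid, 4 of 8 neutrophil and 6 of 11 lymphoid markers were tested, and 0 of these had an unadjusted p under 0.05. In RNA of many cells, fewer cells of a type and less RNA per cell cannot be told apart. The part of this shift in markers in the ribosomal protein values was not tested.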

How the data were processed

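RNA of sorted CMPs was hybridised to 1-colour Agilent mouse arrays. The deposited scanner files hold the authors' intensity values per spot, made with Agilent Feature Extraction 10.7.3.1, which subtracts the background. A series table deposited by the authors holds log2 values made with Genespring 13, shifted to the 75th percentile and centred per probe on the median of the arrays, and served as an alternative. Here the processed signal was log2-transformed, each array was shifted to its own 75th percentile (59305 non-control spots), outlier spots were dropped and spots of a probe averaged. No spot was saturated. A probe was tested if well above background (in more than 50% of its spots) on at least 4 of 8 arrays, which left 33476 of 55681 probes. limma 3.58.1 in R 4.3.3 compared old with young and was tested on simulated data. The number of arrays limits the precision. Slides were read from the file headers. Genes named were any called, the 6 highest and 6 lowest differences, and fixed genes and paralogue pairs, besides those said to be picked later, and a few items are not reported here. Members and lists were chosen with earlier results of these data known. Sequences are RefSeq's (GRCm38.p6) or the array's (mm9).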

Additional observations from a re-analysis of the deposited data

Results flagged for a closer look

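In 116 sets of 4 arrays (the named genes and the list medians in each age), 4 had 1 array farther from the nearest other than Dixon's 95% limit allows. About 1 in 20 such sets passes that limit by chance, so 4 is no more than that share.

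Rpl22 was at 8.79 on old 4 and at 8.17 to 8.24 on the other old arrays. Rps14 was at 9.32 on young 4 against 9.69 to 9.75 on the other young arrays. Rpsa was at 8.85 on young 4 against 9.40 to 9.47, and the median of the structural genes outside the name pattern was at 8.89 on young 4 against 9.40 to 9.47. All 4 concern the arrays on which the ribosomal protein genes as a group were highest or lowest.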

How the results depend on the processing

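Under 25 alternatives, 2 of them added after the data were seen, no structural gene was called. The count called lower was 1 (Rps4y2) with normexp background correction and 1 with array weights, in place of 0. At an unadjusted p under 0.05 the count lower was 2 without a filter on dim probes (Rps4y2 and Rpl3l, the latter not above background), and the count higher was 1 with the methods' t-test (Rpl21, difference 0.18, unadjusted p by that test 0.0422), which called 0 genes of all 23145. Leaving out 1 array moved the members' median between -0.02 and 0.13. With the replicate block, which leaves young 6 and old 2 without a partner, the median was 0.11, the count called 0 and the adjusted p of Rps4y2 0.391, and 9 genes of all were called higher in place of 44. Same-numbered arrays had correlations of -0.09, -0.14 and 0.15 in their deviations. With so few values and no reference for their size, these cannot decide whether the shared numbers pair the arrays. Over all genes the alternatives called 0 to 113 higher and 0 to 36 lower. Of 797 values of named genes under the alternatives, 104 turned sign, all of them uncalled. Saturated spots could not be left out, as none occurred.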
